A study of Mus musculus with 4 samples.

Results

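Growth hormone (Gh), prolactin (Prl) and pro-opiomelanocortin (Pomc) are the 3 hormone genes described here, taken by symbol from the 32285 genes of each count matrix. Each symbol stood in 1 row of the matrix. The transcripts were counted in single-cell RNA-seq libraries of pituitary glands from wild-type C57BL/6J male mice, fed for 12 weeks on either a control diet, written CTRL, or a high-fat diet, written HFD. Each diet had 2 libraries, and values are given in the order CTRL 1, CTRL 2, HFD 1, HFD 2. All glands had been digested with collagenase and trypsin for 30 minutes at 37 C, and cells were tagged in droplets with the 10x Genomics Chromium 3' v3.1 chemistry. The labels say neither how many glands entered a library nor whether libraries of the same diet came from different animals, so the p-values measure only the spread between these libraries, which may be technical. No age was given in the sources used here. By its labels the study compared pituitary cell populations between the diets, and the question addressed here is how much of each hormone transcript its own cells carried, and how much other barcodes carried, on each diet.

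The anterior lobe of the pituitary holds hormone cells that each devote much of their messenger RNA to a single hormone. Somatotropes make growth hormone, which drives body growth and acts on metabolism, and lactotropes make prolactin, which acts on the mammary gland and on reproduction. Both depend on the transcription factor Pou1f1 (Pit-1). Pomc encodes a precursor protein that corticotropes of the anterior lobe cut into ACTH, the hormone that stimulates the adrenal cortex, and that melanotropes of the intermediate lobe cut further into alpha-MSH. Tbx19 (Tpit) drives Pomc in both cell types, and Pax7 sets melanotropes apart from corticotropes.

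In the GENCODE vM21 annotation of the mouse build GRCm38 all 3 genes are protein coding. Gh (ENSMUSG00000020713) lies on the minus strand of chromosome 11 at positions 106300271 to 106301865, with 1 transcript and 5 exons. Prl (ENSMUSG00000021342) lies on the plus strand of chromosome 13 at 27057570 to 27065205, with 4 transcripts. Pomc (ENSMUSG00000020660) lies on the plus strand of chromosome 12 at 3954951 to 3960642, with 5 transcripts. A unique molecular identifier (UMI) marks 1 captured molecule at its 3' end whatever its length, so levels of different genes are compared here as UMIs without a division by length.

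The RefSeq promoters of Prl and Pomc are shown because the factors that separate lactotropes from Pomc cells are among the genes measured. Of the 3 genes, 2 matched the promoter table (RefSeq, GRCm38.p6), which spans 250 bases before to 50 bases after each gene's start, and Gh is named only. Capitals mark every match, on either strand, to TATAAA (the TATA box), ATGNATA (the core of the site that Pou1f1 binds) and TCACACC (a site of T-box factors such as Tbx19).
Prl, chr13:27057320-27057619, plus strand: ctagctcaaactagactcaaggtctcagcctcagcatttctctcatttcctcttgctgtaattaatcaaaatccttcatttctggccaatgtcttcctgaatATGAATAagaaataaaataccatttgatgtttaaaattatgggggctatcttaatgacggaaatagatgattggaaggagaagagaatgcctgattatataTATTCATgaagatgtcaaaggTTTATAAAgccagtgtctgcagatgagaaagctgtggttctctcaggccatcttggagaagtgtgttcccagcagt
Pomc, chr12:3954695-3954994, plus strand: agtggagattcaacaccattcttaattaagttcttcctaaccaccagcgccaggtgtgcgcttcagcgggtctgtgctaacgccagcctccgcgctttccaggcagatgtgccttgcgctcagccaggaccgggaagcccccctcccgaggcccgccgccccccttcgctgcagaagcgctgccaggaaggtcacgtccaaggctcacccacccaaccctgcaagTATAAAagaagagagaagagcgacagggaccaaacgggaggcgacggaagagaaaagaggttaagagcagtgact
The Prl window held 2 overlapping matches to TATAAA, 1 on each strand, starting 26 and 24 bases before the start, and the Pomc window held 1, 25 bases before it. ATGNATA matched Prl at 2 places, 148 and 47 bases before the start, and had 0 matches in Pomc. TCACACC had 0 matches in both windows, and bases more than 250 before the start were not searched. The E-box CANNTG, which is not in capitals, matched 2 places in each. Of all 32851 promoters of this length in the table, TATAAA stood in 13.6%, ATGNATA in 8.84%, TCACACC in 3.98% and CANNTG in 72.3%.

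The deposited matrices held 7463, 8173, 10921 and 8180 barcodes with 92818116, 101903367, 74758237 and 97223297 UMIs. Barcodes were shared between libraries far beyond the rest for 2 pairs: HFD 1 and HFD 2 shared 3116 barcodes and HFD 1 and CTRL 2 shared 1423, while the other pairs shared 14 to 22. In HFD 1, 3100 barcodes stood at a median of 5.58% of the UMIs of the same barcode in HFD 2, and 1006 at 2.87% of those in CTRL 2. In CTRL 2, 396 barcodes stood at 2.51% of those in HFD 1. Such low copies, at or under 10% of the UMIs of the same barcode elsewhere, were removed before the comparisons (9, 397, 4103 and 0 barcodes), a choice made after seeing the data. A barcode of CTRL 1 with 465131 UMIs, against 127061 in the next largest, was removed as well. It carried Gh at 23.7%, Prl at 3.73% and Pomc at 6.81% of its UMIs. Keeping the low copies moved the diet difference in each member's own cells by little: the log2 difference was -0.34 for Gh, -0.34 for Prl, 0.22 for Pomc in corticotrope-like cells and 0.24 for Pomc in melanotrope-like cells, against -0.35, -0.36, 0.20 and 0.22 without them. It did change the melanotrope-like cells of HFD 1 themselves, whose number rose from 193 to 470 and whose median depth fell from 13575 to 1934.5 UMIs. After filters and removal of putative doublets 4349, 6828, 5874 and 6928 cells remained, 23979 in all, at a median of 17922, 12340, 10047 and 10866 UMIs per cell.

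Cells were clustered and named with Gh, Prl and Pomc left out, so that a cell's class does not depend on the transcripts measured in it. The 20 clusters included 2 named somatotrope-like, with 6 of 7 marker genes each, and 2 named lactotrope-like, with 6 of 8 each. A single cluster was corticotrope-like and another melanotrope-like, each with 7 of 7 markers. Because the clusters were rebuilt, a difference from the study's own cell types may come from the names. In the factor genes, Pou1f1 averaged 630.3 CPM (UMIs scaled to a common total per class and library) ± 64.0 (SD, n = 4) in lactotrope-like cells, 434 ± 35.5 in thyrotrope-like and 284 ± 23.6 in somatotrope-like cells, and stood at 12.4 in corticotrope-like and 10.5 in melanotrope-like cells. Tbx19, which is also a naming marker, averaged 229.6 ± 51.1 CPM in corticotrope-like and 117 ± 15.0 in melanotrope-like cells. Pax7, a naming marker too, averaged 163 ± 16.8 CPM in melanotrope-like cells.

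Each transcript was concentrated in the class named for it. Somatotrope-like cells held 94.5, 97.6, 97.5 and 96.7% of the Gh UMIs of kept cells. Lactotrope-like cells held 93.8, 96.1, 96.4 and 96.8% of those of Prl. Corticotrope-like and melanotrope-like cells together held 94.97, 97.2, 94.7 and 95.9% of those of Pomc.

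The classes were ordered by the median share of a cell's UMIs among the 11 named classes with at least 30 cells in every library, and there the own class stood apart for each gene. Gh took 36.7% ± 4.38 (SD over 4 libraries) of UMIs in somatotrope-like cells. The next class, T or NK cell-like, stood at 0.642% ± 0.316, 57.2-fold lower, and gonadotrope-like cells were last at 0.169% ± 0.0786, 218-fold lower. Prl took 15.7% ± 5.18 in lactotrope-like cells, and the other 10 classes were 97.7-fold to 336-fold lower. Pomc took 16.0% ± 2.59 in melanotrope-like and 3.79% ± 0.549 in corticotrope-like cells, a 4.22-fold step whose library ranges did not overlap, and the other 9 classes were 135-fold to 488-fold lower than melanotrope-like cells. Below the own classes, neighbouring classes in each order had overlapping library ranges, so their order is not told apart. Cells outside these classes could carry more. In the cluster named red blood cell-like (95, 6, 53 and 19 cells) the median share was 17.1, 0.146, 9.41 and 15.1% for Gh and 5.21, 8.69, 7.58 and 0.0938% for Prl, and in cells left unnamed that of Gh was 3.16, 0.704, 1.28 and 1.16%.

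**Figure D1:**
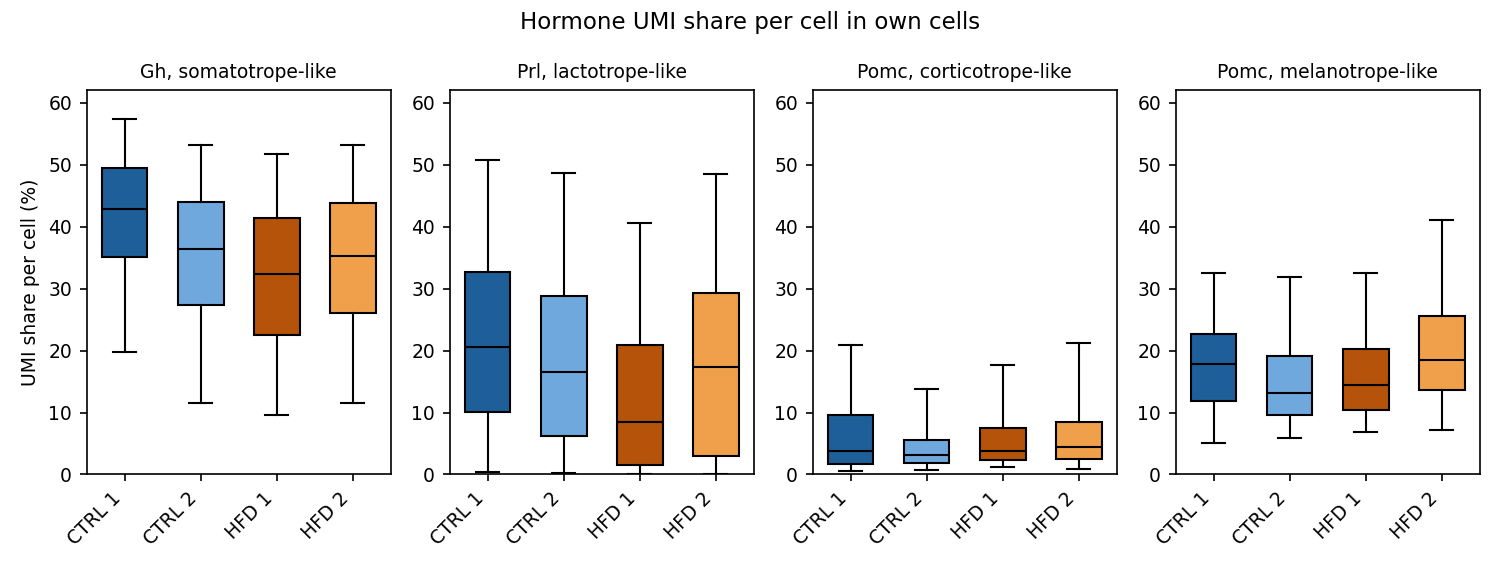
Share of each cell's UMIs, in percent, taken by Gh in somatotrope-like cells, Prl in lactotrope-like cells and Pomc in corticotrope-like and melanotrope-like cells of each library; boxes span the quartiles with the median, and whiskers the 5th to 95th percentile of cells. Gh medians lie between 32.4 and 42.8%, Prl reaches from near 0 to a 95th percentile of 40.6 to 50.7%, and Pomc sits lower in corticotrope-like than in melanotrope-like cells.

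Gh in somatotrope-like cells was the most abundant and most even of the 3. Summed over 1425, 1934, 2313 and 2853 cells, Gh took 43.6, 37.9, 34.4 and 37.3% of UMIs. Both HFD libraries lay below both CTRL libraries, at 35.9% ± 2.04 (SD, n = 2) against 40.7% ± 4.06, although HFD 2 and CTRL 2 differed by little. The log2 difference of HFD against CTRL was -0.35 (SE 0.13), and Gh did not pass the test (edgeR adjusted p = 0.228, unadjusted p = 0.0299); it ranged from -0.49 to -0.17 when any 1 library was left out. The test scaled libraries with TMM factors (0.908 in CTRL 1 to 1.09 in HFD 1); scaled by total UMIs alone, an alternative added after seeing the data, the difference was -0.18 (edgeR adjusted p = 0.223) while the median over all genes was 0.15. In that class 0.0549% of the tested genes passed and 18% had an unadjusted p under 0.05.

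Within somatotrope-like cells, the median share of Gh per cell was 42.8, 36.4, 32.4 and 35.3%. The medians of HFD averaged 33.9% ± 2.03 and those of CTRL 39.6% ± 4.56, without overlap (exact two-sided permutation p = 0.33, the smallest that 2 against 2 libraries can give). The spread between cells was wide beside that step: the 5th percentile lay at 19.7, 11.5, 9.56 and 11.6% and the 95th at 57.4, 53.2, 51.8 and 53.2%. The coefficient of variation over cells was 27.8% in CTRL 1 and 35.8 to 40.0% in the other libraries. Cells in which Gh made up at least 50% of all UMIs were 22.8, 10.5, 6.70 and 9.85% of the class. Cell depth rose with the share of Gh: cells below the first quartile of the share had a median of 16804, 10617.5, 8877 and 8170.5 UMIs, and cells above the third quartile had 29831.5, 20537, 15210 and 15074. Depth here includes the Gh UMIs themselves, so it rises with the Gh share even where a cell's other UMIs stay equal. Depth without Gh was not compared, and whether it has a part in the share was not tested.

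The 2 somatotrope-like clusters were divided unequally between the diets. The first held 82.1 and 88.6% of the class in CTRL 1 and CTRL 2 and 20.6 and 32.2% in HFD 1 and HFD 2, and the second held the rest. Gh was summed at 44.5, 37.8, 32.0 and 35.6% in the first and at 38.4, 38.4, 35.1 and 38.2% in the second. In both clusters each HFD library lay below each CTRL library, HFD 2 only slightly so in the second.

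Prl in lactotrope-like cells varied more, both between cells and between libraries. Summed over 897, 1701, 1223 and 1099 cells, Prl took 24.4, 20.5, 14.8 and 21.4% of UMIs. HFD 1 was the lowest, while HFD 2 lay between the CTRL libraries, so the groups overlapped. The log2 difference was -0.36 (SE 0.17, edgeR adjusted p = 0.450), beside 1.25% of tested genes that passed in this class. HFD 1 and HFD 2 decided the size: the difference was -0.71 without HFD 2, where it passed (edgeR adjusted p = 0.00251), and -0.09 without HFD 1.

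The median share of Prl per lactotrope-like cell was 20.6, 16.6, 8.40 and 17.3%, and the groups overlapped (exact permutation p = 0.67). From the 5th to the 95th percentile of cells Prl ran from 0.465 to 50.7%, 0.277 to 48.7%, 0.0468 to 40.6% and 0.0568 to 48.5%, a ratio of 109 and 176 in the CTRL and 868 and 853 in the HFD libraries. The coefficient of variation over cells was 69.7, 80.7, 106 and 85.8%, above that of Gh in somatotrope-like cells in every library. Some lactotrope-like cells carried no more Prl than cells that do not make the hormone. Taking as background the 95th percentile of the Prl share in endothelial-like, macrophage-like, mesenchymal-like, pericyte-like and T or NK cell-like cells of the same library (1.15, 0.374, 0.294 and 0.248%), the share of lactotrope-like cells at or under it was 7.80% in CTRL 1 (exact Clopper-Pearson 95% interval 6.13 to 9.76), 5.70% in CTRL 2 (4.65 to 6.91), 13.5% in HFD 1 (11.6 to 15.5) and 12.2% in HFD 2 (10.3 to 14.3). Both HFD libraries were higher than both CTRL libraries (exact permutation p = 0.33). The threshold itself was lower in the HFD libraries, and the median depth of these cells was 13571.5, 10622, 9500 and 9808.5 UMIs.

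The lactotrope-like class also held 2 clusters, and Prl differed between them. The larger in 3 of the 4 libraries, led by Edil3, held 73.7, 38.8, 77.4 and 79.5% of the class. A second, led by the neuropeptide gene Gal, held the other 26.3, 61.2, 22.6 and 20.5%, so that CTRL 2 had a different make-up from the rest. The median Prl share was 24.1, 22.3, 10.8 and 20.4% in the cluster led by Edil3. In the cluster led by Gal it was 12.8, 13.5, 0.978 and 1.14%, and 18.2, 7.59, 35.1 and 38.2% of its cells lay at or under the background. Within each cluster both HFD libraries lay below both CTRL libraries, although the class sums overlapped (exact permutation p = 0.33 for the medians of each cluster). This split was examined after the values were seen. Its clusters were formed without Prl but with every other gene of the same cells.

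Pomc was carried at a different level by its 2 classes. In corticotrope-like cells (355, 532, 513 and 572 cells) Pomc took 7.81, 5.64, 6.82 and 7.93% of the summed UMIs. In melanotrope-like cells (338, 868, 193 and 328 cells) it took 18.9, 15.5, 16.8 and 21.4%. Melanotrope-like cells were higher in 4 of 4 libraries, by 1.52 on the log2 scale (SE 0.04; edgeR adjusted p = 2.14e-11, with the library as block). Between these classes 49.1% of tested genes passed.

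With diet, Pomc passed in neither class. The log2 difference of HFD against CTRL was 0.20 (SE 0.14, edgeR adjusted p = 0.674) in corticotrope-like cells, where 0.16% of tested genes passed, and 0.22 (SE 0.17, adjusted p = 0.861) in melanotrope-like cells, where 0.00774% passed. In both classes CTRL 2 was the lowest library and HFD 2 the highest, and the groups overlapped. The corticotrope-like value was 0.46 without CTRL 1, where it passed (edgeR adjusted p = 0.00357), and -0.016 without CTRL 2; scaled by total UMIs alone it was 0.13. The melanotrope-like value ranged from -0.0063 without HFD 2 to 0.44 without HFD 1, and was 0.43 without CTRL 1. The diet difference did not differ detectably between the 2 classes (interaction 0.0018, SE 0.08, edgeR adjusted p = 1, with 0.00738% of genes passing). Of the 4 tests of a member in its own class, 0 passed in edgeR, with 1 at an unadjusted p under 0.05, and DESeq2 also called 0 with 1 unadjusted. Over all genes an unadjusted edgeR p under 0.05 was met by 18% in somatotrope-like, 11.2% in lactotrope-like, 9.5% in corticotrope-like and 5.58% in melanotrope-like cells. DESeq2 called 3.02, 0.983, 0.74 and 0.0877% of the genes to which it gave an adjusted p in these classes.

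Single corticotrope-like cells were uneven in Pomc. The median share per cell was 3.81, 3.13, 3.75 and 4.47%, the coefficient of variation 102, 105, 91.6 and 94.97%, and the highest cell reached 40.1, 44.4, 34.0 and 38.2%. Melanotrope-like cells had medians of 17.8, 13.2, 14.4 and 18.6% and coefficients of variation of 47.7, 53.5, 51.7 and 49.2%, lower in every library. The medians of CTRL and HFD overlapped in both classes (exact permutation p = 0.67 in each). Few cells of either class lay at or under the background of Pomc: 3.94, 0.752, 0 and 0.524% of corticotrope-like cells, and 0.305% or fewer of melanotrope-like cells.

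Over the whole gland, Prl was lower in both HFD libraries. All kept cells together carried Prl at 5.06, 5.35, 3.08 and 3.33% of UMIs, 5.20% ± 0.206 in CTRL against 3.20% ± 0.173 in HFD. The log2 difference was -0.74 (SE 0.08); it did not pass in edgeR (adjusted p = 0.270, unadjusted p = 0.00013) and passed in DESeq2 (adjusted p = 1.82e-14). Gh stood at 18.3, 13.2, 15.3 and 14.9% (-0.10, SE 0.17, edgeR adjusted p = 0.859) and Pomc at 2.25, 2.55, 1.39 and 2.45% (-0.35, SE 0.26, adjusted p = 0.669), both with overlapping groups. In this comparison 0.0108% of genes passed, and of the 3 members 0 passed in edgeR, with 1 unadjusted (10% of all genes), and 1 passed in DESeq2 (1.14% of all genes).

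The sums over the gland depended on single libraries and on the cell mixture. Prl was -0.81 and passed without HFD 2 (edgeR adjusted p = 0.0346). Gh turned to 0.18 without CTRL 1. Pomc ran from -0.85 without HFD 2, where it passed (edgeR adjusted p = 0.0408), to 0.013 without HFD 1. Lactotrope-like cells were 20.6, 24.9, 20.8 and 15.9% of kept cells and melanotrope-like cells 7.77, 12.7, 3.29 and 4.73%, while somatotrope-like cells were 32.8, 28.3, 39.4 and 41.2%. A sum over the gland does not by itself separate fewer cells of a type from less RNA per cell. Within lactotrope-like cells Prl took 24.4, 20.5, 14.8 and 21.4% of UMIs. HFD 1 thus had a share of lactotrope-like cells near that of CTRL 1 with less Prl in them. HFD 2 had the lowest share of these cells, with Prl in them between the CTRL libraries. The part of each in the sum was not tested.

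**Figure D2:**
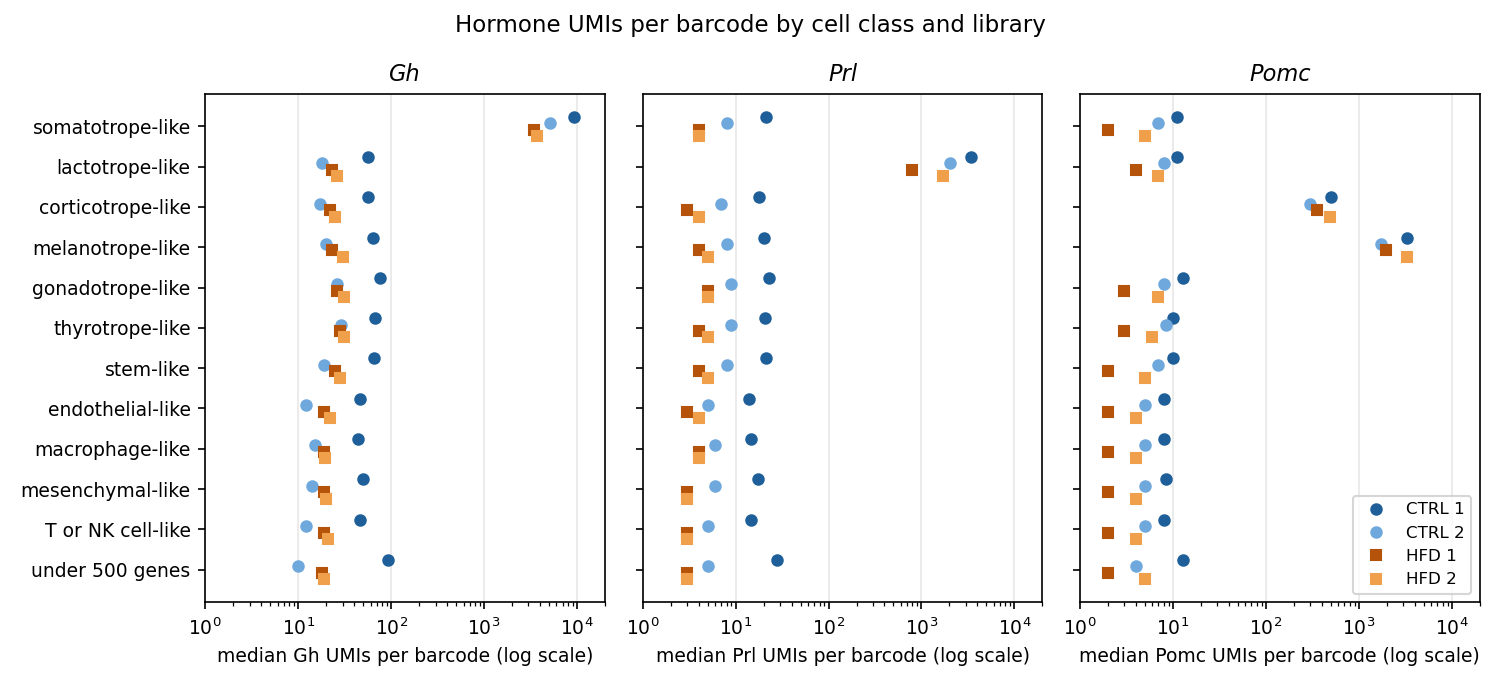
Median UMIs of Gh, Prl and Pomc per barcode, on a log axis, in each cell class and in barcodes under 500 genes; circles are CTRL and squares HFD libraries, 1 point for each. The own classes stand between 300.5 and 9315 UMIs, and the other classes and the low barcodes lie together at 2 to 92, with CTRL 1 the highest.

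Outside the own classes, most cells carried each of the 3 transcripts at a low level. Among the tested classes, the lowest share of cells with a UMI was 100, 99.7, 100 and 100% for Gh. For Prl it was 98.1, 96.6, 93.1 and 93.5%, and for Pomc 99.1, 94.5, 80 and 97.9%. In the endothelial-like, macrophage-like, mesenchymal-like and T or NK cell-like classes, which are not known to make these hormones, the median count of Gh per barcode was 44 to 50 UMIs in CTRL 1, 12 to 15 in CTRL 2, 19 in each class in HFD 1 and 19.5 to 22 in HFD 2. For Prl it was 14 to 17.5, 5 to 6, 3 to 4 and 3 to 4, and for Pomc 8 to 8.5, 5, 2 and 4. The count was thus nearly the same in all 4 classes of a library and differed between libraries, with CTRL 1 the highest for each gene. In own cells the medians were 9315, 5142.5, 3458 and 3677 UMIs for Gh, 3409, 2003, 782 and 1714 for Prl, 496, 300.5, 358 and 492 for Pomc in corticotrope-like cells and 3290, 1732.5, 1959 and 3327.5 in melanotrope-like cells.

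In the other hormone classes and stem-like cells the count of Gh was somewhat higher, up to 75 UMIs in CTRL 1 and 26 to 31 elsewhere in gonadotrope-like cells. The count moved less between classes than the depth of the cells did, and the share of UMIs ran opposite to depth: T or NK cell-like cells, the second class in each order after the own classes, had medians of 2986.5 to 4054 UMIs per cell, and gonadotrope-like cells, the last, had 21637.5 to 27343. Thinned to 1000 UMIs per cell, 59.7, 46.1, 31.4 and 35.4% of somatotrope-like cells held a Prl UMI, below the 81.4, 65.6, 51.1 and 48.5% of non-hormone cells. The same held for Gh in lactotrope-like cells (93.1, 75.5, 87.7 and 90.8%, against 97.8, 90.2, 95.4 and 93.7%) and for Pomc in somatotrope-like cells (39.3, 41.3, 21.2 and 40.6%, against 62.6, 58.9, 35.7 and 51.6%). These shares did not exceed the share in cells that should lack the hormone. At a near-constant count a thinned share falls with depth, so this comparison cannot tell whether they are background. Unthinned median counts, averaged over the 4 libraries, ran the other way. Somatotrope-like cells held 9.25 Prl UMIs (SD over libraries 8.06), against 6.375 to 7.375 in the 4 non-hormone classes (SD 5.01 to 6.90). They held 6.25 Pomc UMIs against 4.75 to 4.875, and lactotrope-like cells 31 Gh UMIs against 24.375 to 25.75. The SD over libraries was larger than each of these gaps. Depth differed too, with medians of 10744 to 22087 UMIs per somatotrope-like and 10177 to 17327 per lactotrope-like cell. In the 4 non-hormone classes it was 2986.5 to 7707. Whether these counts are background, and from what source, was not tested.

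With diet, the per-cell median of Prl outside its own class was lower in both HFD libraries. In classes other than its own, the median share of Prl per cell was lower in both HFD than in both CTRL libraries in 10 of 10 classes. Pomc was so in 7 of 9 classes and Gh in 0 of 10, where the groups overlapped. In the non-hormone cells together (458, 725, 672 and 707 cells) the medians were 0.208, 0.101, 0.0646 and 0.0557% for Prl, 0.115, 0.0901, 0.0332 and 0.0674% for Pomc, and 0.631, 0.245, 0.391 and 0.327% for Gh. The classes come from the same 4 libraries, so these counts of classes are not independent observations. How many of all genes were lower in both HFD libraries in these classes was not counted, so the counts cannot be called particular to the members. In any 1 class, groups without overlap give an exact permutation p of 0.33.

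The sums over non-hormone cells gave no call. Gh took 2.25, 0.513, 0.506 and 0.419% of their UMIs, Prl 0.751, 0.116, 0.0738 and 0.0666%, and Pomc 0.213, 0.0998, 0.0819 and 0.0860%. CTRL 1 stood above the other libraries, and in it 5 cells, the top 1%, held 64.0% of the Gh and 65.3% of the Prl. The log2 differences were -1.54 (SE 0.63), -2.59 (SE 0.81) and -0.87 (SE 0.34), each with an edgeR adjusted p of 0.997. Of the 3 members 0 passed, with 2 unadjusted, and DESeq2 called 0. Over all genes 0.0158% passed, 3.72% had an unadjusted p under 0.05 and DESeq2 called 0.104%. With the replicate number as a block the Prl difference was -2.05 (edgeR adjusted p = 0.196), and the count of genes passing went from 2 to 35. The values hung on the CTRL libraries: without CTRL 2 Gh was -2.23 (edgeR adjusted p = 0.0499) and Prl -3.37 (adjusted p = 0.00835), both passing, and without CTRL 1 they were -0.14 and -0.72.

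Tested class by class outside the own cells, Prl had a negative log2 difference in 10 of 10 classes, from -4.28 in mesenchymal-like to -1.05 in endothelial-like cells, and 2 passed. In corticotrope-like cells Prl took 0.864, 0.216, 0.0431 and 0.0569% of UMIs (-3.36, SE 0.51, edgeR adjusted p = 0.0453); the call was lost without HFD 2 (adjusted p = 0.191), and with the replicate number as a block (adjusted p = 0.0523). It passed with a smaller size without CTRL 1 (-2.04) and with putative doublets kept (-1.66). In gonadotrope-like cells it took 0.350, 0.491, 0.0579 and 0.158% (-1.82, SE 0.35, edgeR adjusted p = 0.0402), where 1.62% of tested genes passed; the call was lost without CTRL 2 (adjusted p = 0.0527) and in DESeq2 (adjusted p = 0.119). A few cells carried much of these sums: the top 1% of corticotrope-like cells held 79.0 and 67.9% of the class's Prl in the CTRL libraries and 12.4 and 24.7% in the HFD libraries, and the top 1% of gonadotrope-like cells held 60.4 to 83.6%. The part of these cells in the result was not tested.

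Gh and Pomc each passed in 1 class that does not make them, the thyrotrope-like cells, where 0.297% of tested genes passed. Gh was higher with HFD (0.505, 0.446, 0.829 and 0.570%, log2 difference 0.58, SE 0.12, edgeR adjusted p = 0.0206). It kept neither the call nor the size with low copies of shared barcodes kept (0.07, adjusted p = 0.946), with cells clustered on all genes it was 0.15, and with putative doublets kept it was -0.72. The call was also lost without CTRL 1, without CTRL 2 and without HFD 1 (0.30 without HFD 1) in DESeq2 (adjusted p = 0.999) and with scaling by total UMIs alone (0.56, edgeR adjusted p = 0.0716). Pomc was lower (0.0523, 0.180, 0.0188 and 0.0354%, -2.03, SE 0.30, edgeR adjusted p = 0.000264), a call lost without HFD 1 (adjusted p = 0.0533) and in DESeq2 (adjusted p = 0.999), and -0.89 without CTRL 2. Of the Pomc in thyrotrope-like cells of CTRL 2, 75.4% came from 1 cell. In the other classes tested, stem-like, endothelial-like, macrophage-like, mesenchymal-like and T or NK cell-like, 0 of the members passed, beside 0, 0.00977, 0.0144, 0 and 0.109% of tested genes.

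**Figure D3:**
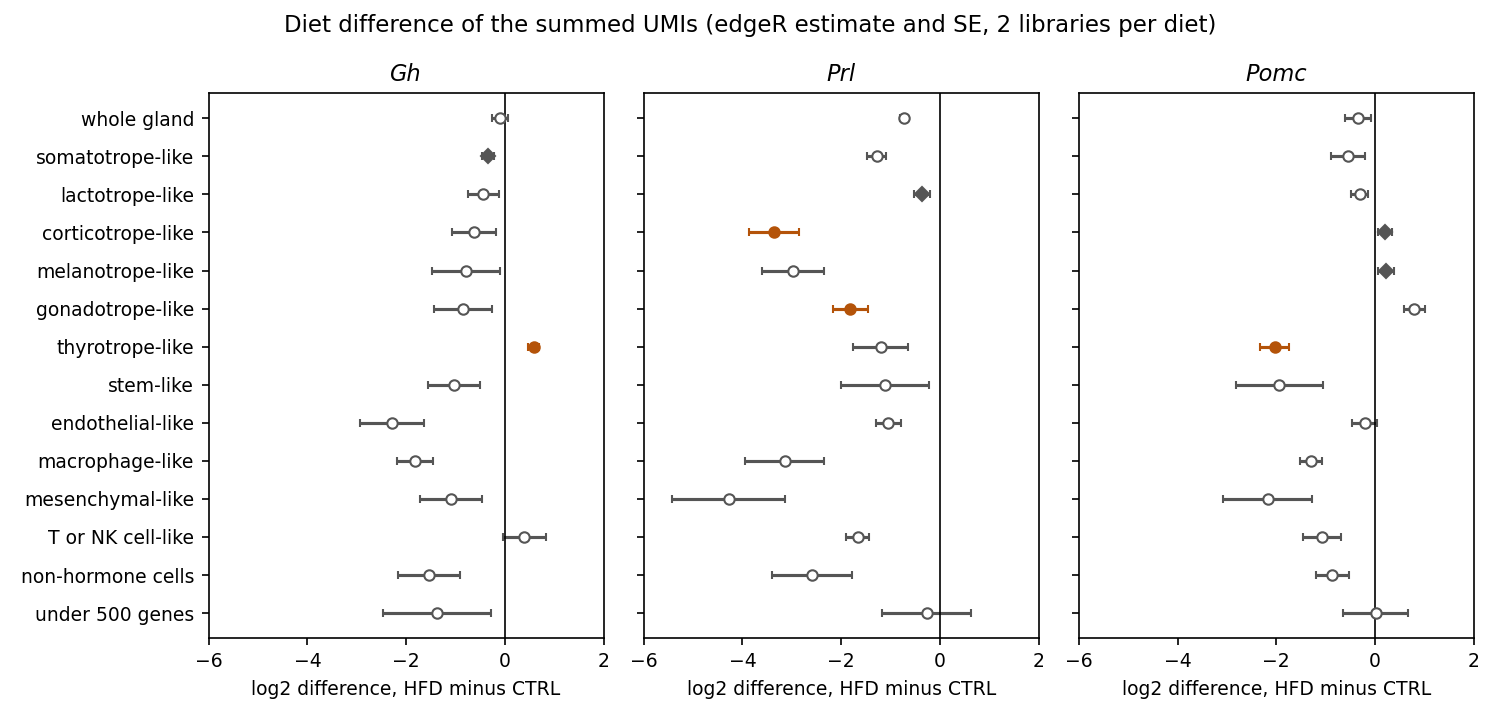
Log2 difference of HFD against CTRL for Gh, Prl and Pomc in each cell class, the whole gland, the non-hormone cells and the barcodes under 500 genes; bars are standard errors, diamonds mark a gene's own class and orange an edgeR adjusted p under 0.05. The own classes lie between -0.36 and 0.22, nearer to 0 and with shorter bars than most other classes, and every Prl point of a cell class is below 0.

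Barcodes under 500 genes, which were not counted as cells, numbered 2906, 515, 619 and 793 and had a median of 570, 788, 790 and 799 UMIs. In CTRL 1 they carried the 3 transcripts at a median of 16.3% for Gh, 4.88% for Prl and 2.31% for Pomc. The first and the third quartile of Gh over these barcodes were close, at 14.3 and 17.7%. In the other libraries the medians were 1.09, 2.00 and 2.08% for Gh, 0.489, 0.291 and 0.303% for Prl and 0.358, 0.169 and 0.438% for Pomc. CTRL 1 thus stood apart from CTRL 2 as well as from both HFD libraries, with 92 Gh UMIs per low barcode against 10, 18 and 19.

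Summed over these barcodes, Gh took 13.0, 3.01, 1.04 and 1.03% of UMIs, Prl 3.90, 1.96, 0.980 and 0.974% and Pomc 1.78, 0.372, 0.338 and 0.371%. In the medians per barcode of Gh and Pomc the groups overlapped, and CTRL 2 was the lowest library for Gh, at 1.09%. In the sums, by contrast, both HFD libraries were below both CTRL libraries for each gene, with HFD 2 nearly equal to CTRL 2 for Pomc. The log2 differences did not follow these shares, because the TMM factors of the 4 libraries were 2.69, 0.912, 0.700 and 0.583: they were -1.38 (SE 1.09, edgeR adjusted p = 0.740), -0.27 (SE 0.90, adjusted p = 0.956) and 0.01 (SE 0.65, adjusted p = 0.998). Scaled by total UMIs alone they were -3.03, -1.65 and -1.67 (edgeR adjusted p = 0.137, 0.324 and 0.324), while the median over all genes was -1.54. Relative to that median Gh was lower, and Prl and Pomc lay near it. Of the 3 members 0 passed, with 0 unadjusted, and DESeq2 called 0 with 1 unadjusted. Over all genes 0.245% passed, 9.3% had an unadjusted p under 0.05 and DESeq2 called 0.061%. Gh passed without CTRL 2 (-1.48, edgeR adjusted p = 0.0149), and Prl turned to 0.17 without CTRL 2. With low copies kept, the HFD 1 barcodes carried Gh at 1.94%, Prl at 6.57% and Pomc at 1.73%, and the Prl difference was 0.50.

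Cells rich in more than 1 of these hormones were rare. With rich set at 5% or more of a cell's UMIs, 15110 of the 23979 kept cells (63.0%) were rich in exactly 1 of the 3 transcripts, 8683 in none and 0 in all 3. Gh and Prl were both rich in 152 cells (0.634%): 83, 14, 42 and 13 by library, or 1.91, 0.205, 0.715 and 0.188% of kept cells. CTRL 1 was the highest, and the groups overlapped.

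Most cells rich in both Gh and Prl were not somatotrope-like or lactotrope-like. Of the 152, 97 stood in the cluster named red blood cell-like (58, 1, 38 and 0 by library), 33 in the lactotrope-like class and 10 in the somatotrope-like class. The 33 lactotrope-like cells had a median of 21268 UMIs, against 11912.5 and 12594.5 in the 2 clusters of that class. The 10 somatotrope-like cells had 17194.5, against 15150 and 10950.5 in the 2 clusters of theirs. In CTRL 1 the 58 cells had medians of 17.1% Gh, 5.58% Prl, 2.32% Pomc and 985 UMIs, near the values of that library's barcodes under 500 genes, of which 1325 (45.6%) were rich in both. In HFD 1 the 38 cells had 8.86% Gh, 8.82% Prl, 0.0795% Pomc and 3503 UMIs, a mixture unlike that of CTRL 1. Outside that cluster 55 cells remained: 25, 13, 4 and 13, or 0.588, 0.191, 0.0687 and 0.188%. With a minimum of 1000 genes per cell the difference of HFD against CTRL in the share of cells rich in both Gh and Prl was 0.139 percentage points, and without CTRL 1 it was 0.246, against -0.605 over all kept cells (exact permutation p = 0.67).

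Gh and Pomc were both rich in 27 cells (11, 4, 0 and 12), of which 24 were melanotrope-like. Those 24 had a median of 32378 UMIs, against 15017 over the melanotrope-like cluster. Prl and Pomc were both rich in 7 cells (4, 3, 0 and 0), all of them melanotrope-like cells of the CTRL libraries (exact permutation p = 0.33). Their median was 37472 UMIs. Whether such deep cells were doublets left in the data was not tested. A count of 0 allows up to 0.0511% of the kept cells of HFD 1 and 0.0433% of those of HFD 2, for counting error only. Among the 1322 putative doublets, which were called without the 3 transcripts, the pairs were more frequent: 115 (8.70%) were rich in Gh and Prl, 70 (5.30%) in Gh and Pomc and 25 (1.89%) in Prl and Pomc.

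**Figure D4:**
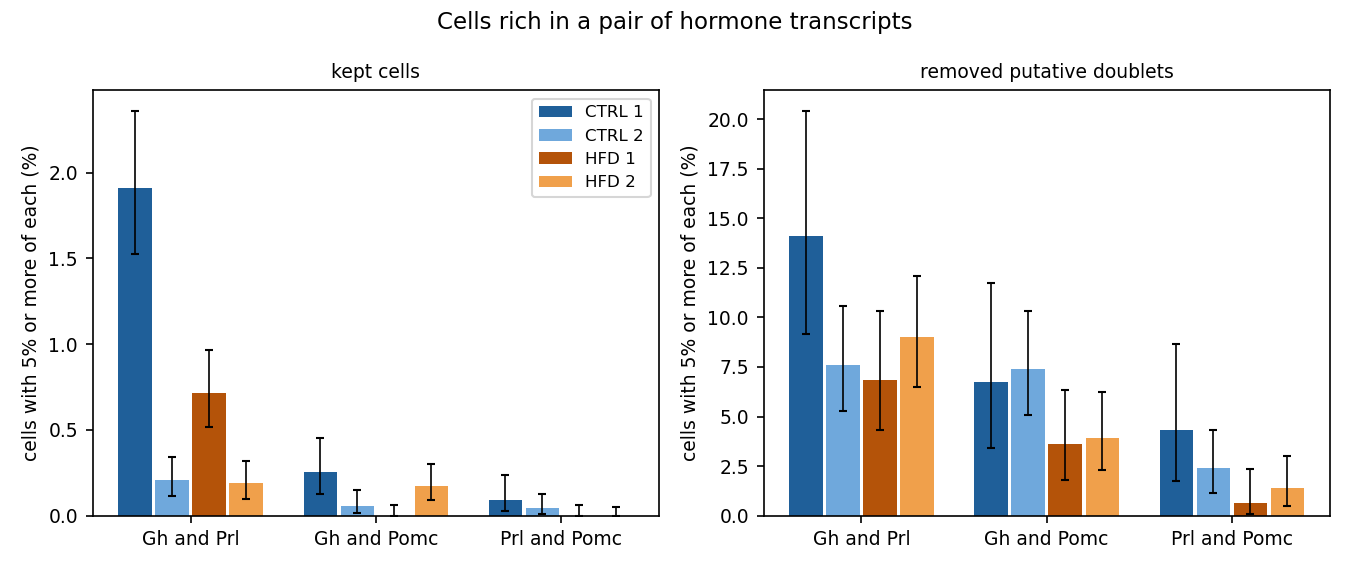
Share of kept cells (left) and of removed putative doublets (right), in percent, with at least 5% of UMIs for each of a pair of hormone transcripts, as 1 bar per library with its exact 95% binomial interval; the panels have different vertical scales. In kept cells Gh and Prl range from 0.188 to 1.91% with CTRL 1 the highest, and in putative doublets every pair is more frequent than in kept cells.

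Among the receptors, factors and granule proteins of the hormone cells, no gene passed the test with diet. Of the 8 listed receptors of somatotropes, such as the receptors for GHRH, ghrelin and somatostatin, 8 were tested and 0 passed in edgeR, with a median log2 difference of -0.07 against -0.003 over all genes tested. Of the 8 listed for lactotropes, with the dopamine receptor Drd2 that restrains prolactin, 6 were tested and 0 passed (median 0.13, all genes 0.003). Of the 6 listed for Pomc cells, with the CRH receptor Crhr1, 5 were tested and 0 passed in corticotrope-like (median -0.02) and in melanotrope-like cells (median -0.32). The 12 genes of hormone granules and prohormone cutting were all tested and 0 passed in each class, with medians of -0.04 in somatotrope-like, 0.23 in lactotrope-like, 0.23 in corticotrope-like and 0.20 in melanotrope-like cells. DESeq2 called 5 of these 12 in somatotrope-like, 1 in lactotrope-like and 2 in corticotrope-like cells, and of 16 listed transcription factors it called 1 each in somatotrope-like and corticotrope-like cells where edgeR called 0. Over all genes DESeq2 called 3.02% in somatotrope-like, 0.983% in lactotrope-like and 0.74% in corticotrope-like cells. An unadjusted edgeR p under 0.05 was met by 7, 6, 5 and 3 of the 12 granule genes in somatotrope-like, lactotrope-like, corticotrope-like and melanotrope-like cells, by 4 of 14, 4 of 13, 6 of 14 and 1 of 12 tested factors, and by 3 of 8, 1 of 6, 0 of 5 and 1 of 5 tested receptors, beside 18, 11.2, 9.5 and 5.58% of all genes.

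The nearest to passing, named after their values were seen, were Pcsk2 and Nr4a1. Pcsk2, a convertase that cuts prohormones, stood at 61.99, 47.1, 159.6 and 75.2 CPM in lactotrope-like cells, higher in both HFD libraries (log2 difference 1.04, SE 0.24, edgeR adjusted p = 0.0645). Nr4a1, an immediate early transcription factor, stood at 149.9, 159, 14.9 and 38.5 CPM in somatotrope-like cells, lower in both HFD libraries (-2.66, SE 0.39, edgeR adjusted p = 0.0923).

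The genes whose level followed each member most closely over 44 sums (11 classes in 4 libraries, log2 of CPM plus 10) were mostly genes of the same classes. For Gh they were Car10 (Pearson r 0.913), Pappa2 (0.912), Gm26777 (0.907), Gm47691 (0.897) and 1810008I18Rik (0.896). For Prl they were Platr21 (0.844), Syndig1 (0.840), Gm3693 (0.831), Alk (0.825) and Agtr1a (0.824). For Pomc they were Necab3 (0.923), Tbx19 (0.920), Plch2 (0.916), Ano2 (0.915) and Egr4 (0.912). Pappa2, Syndig1, Agtr1a and Tbx19 had served to name the classes, and the sums of a library share its depth and its background, so these values are a description.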

How the data were processed

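Pituitary single-cell libraries from 2 diets, 2 libraries each, were analysed from the matrices that the authors deposited, which hold unnormalized UMI counts in whole numbers. The tools named, without roles, were Cell Ranger 6.1.2, Seurat 4.3 and the build mm10, per the submitters' processing notes. The annotation and the strandedness of counting were not given in the sources used here. Members and gene lists were chosen with earlier results of these data known.

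A barcode was kept from 500 genes upwards if no more than 20% of its UMIs were mitochondrial. Low copies of shared barcodes and 1 barcode above 200000 UMIs were removed, which was decided after seeing the data and differs from the design set out at first. Putative doublets (0.8% per 1000 cells, 2 simulated doublets per cell) were removed. Clusters came from 2000 variable genes, 30 components, 20 neighbours and Leiden resolution 0.8 (scanpy 1.11.5, leidenalg 0.10.2, Python 3.11.15), without the 3 members. A cluster was named from at least 3 markers (10% of cells, log2 fold 1 over the rest). A cluster with few UMIs and few of its markers was left unnamed, a rule added after the clusters were seen, and 928 cells stayed unnamed.

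Counts were summed per library and class and tested with edgeR 4.0.16 in R 4.3.3 (quasi-likelihood, TMM, filterByExpr, Benjamini-Hochberg, threshold 0.05). DESeq2 1.42.0, scaling by total UMIs without TMM (added after seeing the data), other filters, the replicate block and leaving out each library were alternatives. Tested on simulated counts with the means of somatotrope-like cells for 14577 genes, of which 200 were changed, edgeR recovered 75% of 2-fold and 97% of 4-fold changes, with 12 false calls among 184. The simulated spread between libraries was set the same for every gene and not taken from the data. Recovery in the data themselves may therefore differ. Per-cell medians and shares were compared over libraries with the exact permutation test. Listed genes were to be named where their adjusted p was under 0.05, and for each member the 5 genes most correlated with it. The intervals of shares of cells and the limit for a count of 0 (3 counts) cover counting error only.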

Additional observations from a re-analysis of the deposited data

Results flagged for a closer look

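Some differences between diets in the summed UMIs pointed opposite ways in different cell classes, with both HFD libraries on the same side of both CTRL libraries in each class. The difference between the classes was not tested. Of 11 classes, Gh was higher in both HFD libraries in 1, lower in both in 3 and overlapped in 7, and Pomc had the same counts. How often all genes did so was not counted. Groups of 2 against 2 libraries without overlap have an exact permutation p of 0.33, so such a pattern is weak. The log2 difference of Gh was 0.58 in thyrotrope-like cells, and -0.35 in somatotrope-like, -2.28 in endothelial-like and -1.82 in macrophage-like cells. That of Pomc was 0.79 in gonadotrope-like cells, and -2.03 in thyrotrope-like, -1.30 in macrophage-like and -1.08 in T or NK cell-like cells. Apart from somatotrope-like cells, none of these classes is the own class of the gene. The per-cell medians did not show the higher values. For Pomc in gonadotrope-like cells they averaged 0.0424% in CTRL and 0.0232% in HFD, lower in both HFD libraries. For Gh in thyrotrope-like cells they averaged 0.220 and 0.172%, with overlapping groups. Of the lower sums, the medians of Gh in endothelial-like and macrophage-like cells overlapped, and the others were also lower in both HFD libraries.

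The low copies of shared barcodes stood outside the comparisons and held counts: 3100 barcodes of HFD 1 stood in HFD 2 with at least 10 times the UMIs, 1006 of HFD 1 in CTRL 2, and 396 of CTRL 2 in HFD 1. In HFD 1 these barcodes carried Gh at a median of 0.184% of UMIs, and the median count of Prl and of Pomc was 0 UMIs. Their sums were not low: Gh took 2.57%, Prl 5.64% and Pomc 4.08% of UMIs. Of the 4103 low copies of HFD 1, 981 carried Prl and 833 carried Pomc at 5% or more of their UMIs.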

How the results depend on the processing

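Of 273 alternative values over 22 results, 236 kept their direction and their side of the threshold, 12 newly passed and 25 turned sign. The cause was not tested. For the results tested by exact permutation the side was fixed in advance, because the p could not fall below 0.33. For those, only the direction could change. With 1 library left out, log2 differences between diets in own cells ranged from -0.49 to -0.17 for Gh, -0.71 to -0.086 for Prl, and -0.016 to 0.46 (corticotrope-like) and -0.0063 to 0.44 (melanotrope-like) for Pomc. Over the gland they ranged from -0.34 to 0.18, -0.81 to -0.67 and -0.85 to 0.013, in non-hormone cells from -2.23 to -0.14, -3.37 to -0.72 and -1.30 to -0.24, and in barcodes under 500 genes from -1.48 to -1.04, -0.50 to 0.17 and -0.15 to 0.44. The interaction ranged from -0.10 to 0.10, the difference in median Pomc share in melanotrope-like cells from -1.33 to 3.26 points, and that in cells rich in Gh and Prl from -1.46 to 0.246 and in Gh and Pomc from -0.166 to 0.0280. Outside own cells, the ranges that crossed 0 were, for Gh, -1.01 to 0.53 (lactotrope-like), -1.59 to 0.077 (corticotrope-like), -2.19 to 0.65 (melanotrope-like), -1.63 to 0.95 (gonadotrope-like), -1.81 to 0.44 (mesenchymal-like) and -0.26 to 1.19 (T or NK cell-like); for Prl, -3.85 to 0.70 (thyrotrope-like); for Pomc, -0.63 to 0.12 (endothelial-like) and -3.01 to 0.13 (mesenchymal-like).

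Without the filter on low counts, Prl in lactotrope-like cells (-0.36), Pomc in corticotrope-like cells (0.22) and Prl over the gland (-0.74) passed, and the interaction was -0.0098. DESeq2 also passed Prl over the gland (-0.74). With putative doublets kept, Gh was 0.060 in lactotrope-like, -0.72 in thyrotrope-like, 0.15 in mesenchymal-like and -0.82 in T or NK cell-like cells, Prl 0.49 in endothelial-like cells and the interaction -0.042. Clustered with all genes, the interaction was -0.0018, and scaled by total UMIs alone -0.0023. Under that scaling Pomc in low barcodes was -1.67. In low barcodes Prl was 0.50 with low copies kept, and Pomc -0.24 under 300 and -0.27 under 1000 genes. The share rich in Gh and Prl differed by 0.139 points with at least 1000 genes per cell, and that rich in Gh and Pomc by 0.0767 with low copies kept and 0.0360 at 10% of UMIs.

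With the replicate number as a block, which the labels do not tie to animals, the values were -0.34, -0.39, 0.22 and 0.22 in own cells, and 0 of these 4 calls changed; the count of called genes went from 8 to 29 in somatotrope-like and from 172 to 500 in lactotrope-like cells. Same-numbered sums of non-hormone cells correlated at 0.387 and, under the block, called genes there went from 2 to 35; the other correlations lay between -0.13 and 0.0983. In somatotrope-like sums (-0.13) the numbers were also crossed, and then 550 genes passed, Gh among them (-0.34). That crossing was picked from the negative correlation of the same sums, and no label gives it, so these calls are no separate support. With 2 libraries a side, genes called ranged over the alternatives run from 0 to 550 in somatotrope-like, 13 to 609 in lactotrope-like, 7 to 708 in corticotrope-like and 1 to 155 in melanotrope-like cells. In the tested classes other than its own, the median count of each member was 2 to 75 UMIs per barcode, so a few cells can set a sum there.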
